A study of Mus musculus with 8 samples.

Results

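The 10 genes described here belong to the skeletal muscle sarcomere. These genes, Acta1, Tnnt3, Tnnc2, Tnni2, Mylpf, Myh1, Myh2, Myh4, Actn3 and Ckm, were followed array by array in mouse RPE/choroid, the retinal pigment epithelium together with the vascular layer behind it. They are 10 of the 18193 genes that had a probe set of their own on the Affymetrix Mouse 430 2.0 array, a slide of short DNA probes grouped in probe sets. The 10 genes were read by 16 of 45037 probe sets, those annotated to 1 member gene and no other. Old samples came from male C57BL/6 mice of 26 months and young samples from male C57BL/6 mice of 4 months, with no treatment or transgene named in the labels. Each age had 4 samples on 1 array each, and each sample pooled 4 RPE/choroids from 2 animals, so that the spread between arrays is a spread between pools. The muscle genes were read as a measure of extraocular muscle left on the eye cup at dissection, and whether the RNA came from that muscle was not tested.

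The sarcomere is the contractile unit of striated muscle, in which thick filaments of myosin slide along thin filaments of actin. Calcium bound by troponin frees actin for myosin, the Z disc anchors the thin filaments, and creatine kinase restores the ATP that myosin spends. Fast and slow fibres use different isoforms of nearly every one of these proteins. The muscles that move the eye insert on the sclera, directly outside the choroid, and hold fast fibres of several myosin types.

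The members divide by role. Acta1 encodes the actin of adult skeletal thin filaments. Tnnt3, Tnnc2 and Tnni2 encode the 3 subunits of fast troponin, which bind tropomyosin, bind calcium and inhibit the contact of actin with myosin. Mylpf encodes the fast regulatory light chain, and Myh4, Myh1 and Myh2 the heavy chains of the fast myosin types IIB, IIX and IIA. Actn3 encodes the α-actinin of fast Z discs, and Ckm the muscle creatine kinase. RefSeq promoters (GRCm38.p6, 250 bases before to 50 after the gene start) matched 7 of the 10 genes. Those of Tnnc2, whose array pattern was closest to that of the group, and of the heavy chain genes, neighbours on chromosome 11 with different array patterns, are shown 5′ to 3′, with E-boxes (CANNTG on either strand, a motif bound by the MyoD family) in capitals. Tnnc2 lies at chr2:164779685-164779984 on the minus strand, and the others on the plus strand at chr11:67237562-67237861 (Myh4), chr11:67199852-67200151 (Myh1) and chr11:67170777-67171076 (Myh2).
Tnnc2: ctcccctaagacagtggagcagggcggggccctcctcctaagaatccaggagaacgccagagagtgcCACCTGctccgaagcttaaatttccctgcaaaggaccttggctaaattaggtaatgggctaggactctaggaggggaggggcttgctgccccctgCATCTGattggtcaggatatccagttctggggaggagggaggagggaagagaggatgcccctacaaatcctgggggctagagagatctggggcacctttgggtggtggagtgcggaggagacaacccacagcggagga
Myh4: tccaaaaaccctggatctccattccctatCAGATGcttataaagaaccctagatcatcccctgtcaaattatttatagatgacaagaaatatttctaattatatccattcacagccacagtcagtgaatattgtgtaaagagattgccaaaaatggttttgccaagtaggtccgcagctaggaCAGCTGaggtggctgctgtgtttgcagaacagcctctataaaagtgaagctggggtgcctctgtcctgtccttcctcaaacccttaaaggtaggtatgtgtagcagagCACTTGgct
Myh1: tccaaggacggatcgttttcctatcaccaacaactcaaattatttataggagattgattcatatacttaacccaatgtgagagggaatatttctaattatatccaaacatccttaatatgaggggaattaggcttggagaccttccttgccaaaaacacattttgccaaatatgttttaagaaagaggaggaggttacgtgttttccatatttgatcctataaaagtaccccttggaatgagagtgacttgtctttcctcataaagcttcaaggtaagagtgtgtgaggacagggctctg
Myh2: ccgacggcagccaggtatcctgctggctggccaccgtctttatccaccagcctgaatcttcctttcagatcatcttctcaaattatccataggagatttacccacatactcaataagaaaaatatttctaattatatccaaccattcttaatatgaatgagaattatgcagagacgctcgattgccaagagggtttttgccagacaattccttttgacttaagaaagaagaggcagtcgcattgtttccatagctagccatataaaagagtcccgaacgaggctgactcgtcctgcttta
Of the 7 member promoters, 5 held an E-box, as did 72.3% of 32851 RefSeq promoters of the same length, and Myh1 and Myh2 were the members with none. Tnnc2 had E-boxes that began 183 and 88 bases before the start, and Myh4 had them 221 and 67 bases before it and a further one after it. TATAAA, searched on both strands, was in 4 of the 7, against 13.6% of all promoters. It began 31 bases before the start of Myh4, 32 bases before that of Myh1 and 7 bases before that of Acta1. In Myh2 it began 10 bases after the start. The CArG box, searched as CC and GG around a run of A or T and bound by serum response factor, was in the 2 promoters of Acta1 and Myh4, against 1.63% of all promoters. A MEF2 site, searched as CTA and TAG around a run of A or T, was in 0 of the 7, against 0.557% of all promoters. These are matches of letters, and binding was not measured.

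All 8 arrays were alike in scale. Their median intensity, a linear brightness taken as already normalized between arrays, was 129 to 135, and the lowest correlation between arrays of the same age was 0.991. Of the genes listed for the RPE, Dct, an enzyme of melanin synthesis, was bright in every array, at 12507 to 14005 in old and 14634 to 15609.6 in young arrays. Its values were lower in old without overlap between the ages, and 29.5% of all genes did not overlap in either direction. In bulk tissue, fewer cells of a type and less RNA per cell cannot be told apart. Signs of RNA quality or detection calls were not used here.

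None of the sarcomere genes was called between the ages. By limma with Benjamini-Hochberg adjustment over all probe sets, 0 of the 10 genes passed an adjusted p of 0.05, where 21.3% of all 18193 genes passed. None of the 10 was called higher in old, as 11.8% of all genes were, and none lower, as 9.56% were. At an unadjusted p under 0.05 the count was 0 of 10 as well, against 37.4% of all genes. None passed the study's rule of a fold over 2 with an adjusted p under 0.01 (1.23% of all genes), and the number whose values did not overlap between the ages was 0 of 10 (29.5% of all genes). The log2 fold change, old minus young, was negative in 8 genes and positive in Myh1 and Myh2, with a median of -0.21 against -0.02 over all genes and a range of -1.42 to 0.24. Adjusted p-values lay between 0.270 and 0.895. An exact permutation test over the 70 splits of the arrays, two-sided, gave 0.171 as the lowest p of a member, where 0.0286 is the smallest it can give. Among probe sets, 0 of the 16 passed either threshold, against 18.0% of all probe sets after adjustment and 33.3% before it.

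**Figure D1:**
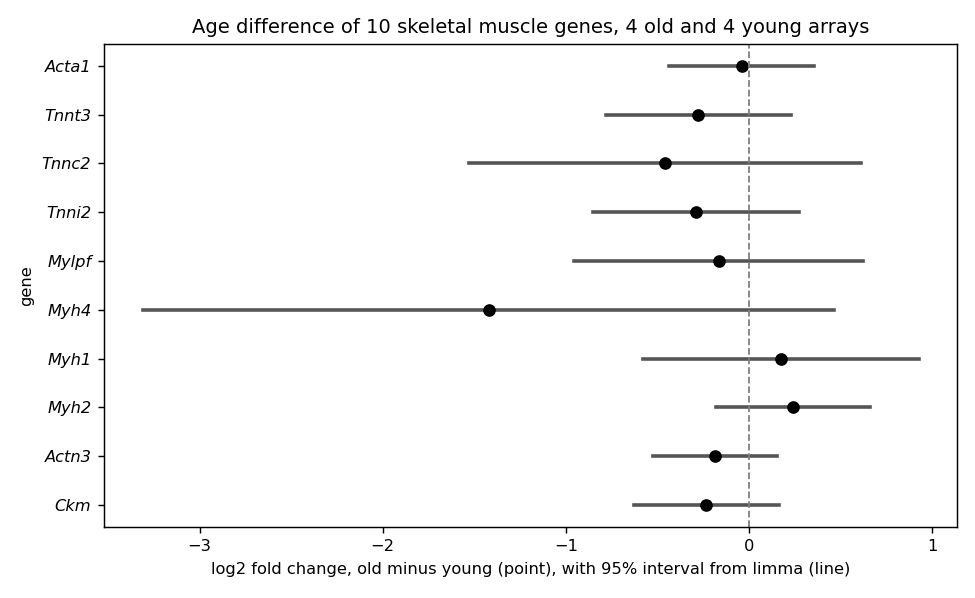
Log2 fold change of each gene, old minus young (points), with its 95% interval from limma (lines), over 4 old and 4 young arrays. All 10 intervals include 0, and that of Myh4, from -3.31 to 0.46, spans the most.

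In the thin filament, the actin and troponin genes overlapped between the ages. Acta1 read 430.2, 284, 332 and 253 in old replicates 1 to 4, against 266, 296, 387 and 377 in young replicates 1 to 4. The array with the most was old and so was the array with the least, and the ages differed by -0.04 (log2, SE 0.18, 95% interval -0.44 to 0.35, limma adjusted p = 0.895). This sign was not stable: leaving out 1 array at a time gave -0.19 to 0.07, above 0 without old replicate 2, old replicate 4, young replicate 3 or young replicate 4. Tnnc2, the calcium sensor of fast troponin, read 244, 104, 161 and 61.0 in old arrays, against 105, 107, 269 and 295 in young arrays. Old replicate 1 stood beside young replicates 3 and 4, and old replicate 2 beside young replicates 1 and 2. The difference was -0.46 (SE 0.48, 95% interval -1.53 to 0.61, limma adjusted p = 0.540), with -0.78 without old replicate 1 and -0.11 without old replicate 4 as the ends of its range when 1 array was left out.

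Tnnt3, which ties troponin to tropomyosin, read 128, 79.5, 88.8 and 62.8 in old arrays, against 87.1, 85.0, 133 and 125 in young arrays. Tnni2, the inhibitory subunit, read 279, 192, 216 and 159 in old arrays, against 190.2, 185, 307 and 378 in young arrays. Both genes were high in old replicate 1 and in young replicates 3 and 4, and lowest in old replicate 4. Their log2 differences were -0.28 (SE 0.22, limma adjusted p = 0.422) and -0.29 (SE 0.25, adjusted p = 0.457), and with 1 array left out they ran between -0.47 (without old replicate 1) and -0.12 (without old replicate 4) for Tnnt3 and between -0.44 (without young replicate 2) and -0.096 (without young replicate 4) for Tnni2. Another probe set of Tnni2 had the same order of old arrays (166, 126, 152 and 114, against 109.8, 133, 185 and 192 in young), while the remaining one varied less, from 74.2 to 83.3 in old and from 80.7 to 99.1 in young arrays.

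In the thick filament, the light chain and the heavy chain genes differed from one another. Mylpf, the light chain, read 189, 103, 158 and 77.8 in old arrays, against 88.7, 102, 194 and 215 in young arrays. The arrays of each age stood in the same order as for Tnnc2, and the ages differed by -0.17 (SE 0.35, 95% interval -0.96 to 0.62, limma adjusted p = 0.779). The sign turned without old replicate 4 (0.06) or young replicate 4 (0.04), and leaving out each array in turn gave -0.38 to 0.06. Myh4, the IIB heavy chain, read 491, 46.6, 55.5 and 42.7 in old arrays, against 145, 88.9, 389 and 559.9 in young arrays. Among old arrays, replicate 1 was 11.5-fold above the lowest, and the young arrays spanned 6.30-fold. Its mean was 159 ± 221 in old and 296 ± 219 in young arrays (SD, n = 4 each), a log2 difference of -1.42 (SE 0.84, 95% interval -3.31 to 0.46, limma adjusted p = 0.270). Old replicate 1 decided this call: without it the difference was -2.26 at a limma adjusted p of 0.0304. This was the 1 call of a member under any alternative. The other probe set of Myh4 did not show this pattern, at 32.5, 20.2, 26.4 and 27.0 in old, against 27.4, 27.9, 25.8 and 29.1 in young arrays (-0.07, SE 0.13, adjusted p = 0.719), and the mean of both probe sets differed by -0.75.

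Myh1 and Myh2 had array patterns of their own, at a low level. Their mean log2 values lay below the median over all probe sets, as did those of Tnnt3, Mylpf and Actn3. Myh1, the IIX heavy chain, read 66.2, 131, 136 and 48.2 in old arrays, against 68.2, 57.4, 92.2 and 97.4 in young arrays. Old replicates 2 and 3, among the low arrays of Myh4, were the 2 highest of all 8 arrays for Myh1. The ages differed by 0.17 (SE 0.33, 95% interval -0.58 to 0.93, limma adjusted p = 0.754), with -0.04 to 0.46 when 1 array was left out, below 0 without old replicate 2 or without old replicate 3. A further probe set of Myh1 likewise put old replicates 2 and 3 above the rest (59.8, 104, 102 and 39.7, against 56.0, 51.2, 71.7 and 75.3 in young) and the last one did not (41.6, 48.2, 57.8 and 58.8, against 50.8, 49.0, 59.9 and 61.1 in young). Myh2, the IIA heavy chain, read 60.9, 63.6, 114 and 80.6 in old arrays, against 73.5, 54.9, 64.2 and 70.6 in young arrays. Old replicate 3 was its highest array, and the ages differed by 0.24 (SE 0.19, 95% interval -0.18 to 0.66, limma adjusted p = 0.409). Without old replicate 3 the difference was 0.052. The fast heavy chain genes are related in sequence, so that some probes may read more than 1 of them. This was not checked by sequence, and how their signal divides is uncertain.

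**Figure D2:**
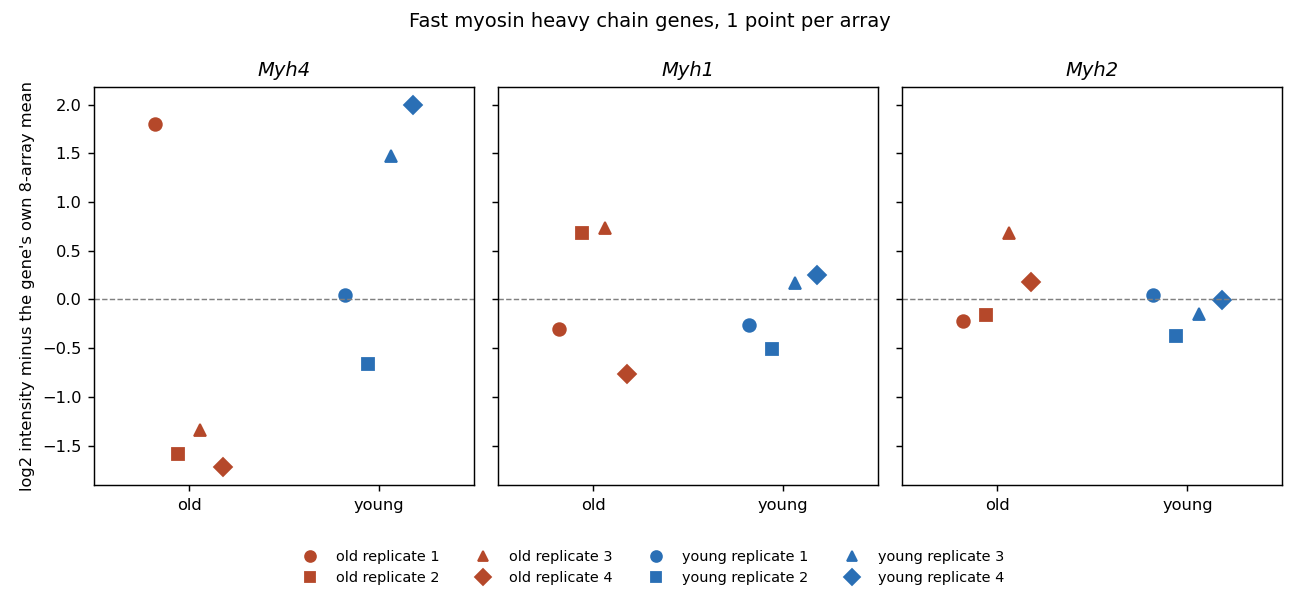
Log2 intensity of Myh4, Myh1 and Myh2 minus the gene's own mean over 8 arrays, 1 point per array, old left of young. Myh4 stood at 1.81 in old replicate 1 and between -1.72 and -1.34 in the other old arrays, whereas Myh1 stood at 0.68 and 0.74 in old replicates 2 and 3 and at -0.30 in old replicate 1.

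The Z disc and energy genes spanned less. Actn3 read 103, 69.7, 76.8 and 73.5 in old arrays, against 89.4, 71.3, 103 and 104 in young arrays, a log2 difference of -0.19 (SE 0.15, 95% interval -0.52 to 0.15, limma adjusted p = 0.427). Ckm read 293, 198, 202 and 208 in old arrays, against 213, 215, 312 and 324 in young arrays. Both genes had old replicate 1 as the highest old array and young replicates 3 and 4 as the highest young ones. Ckm differed by -0.23 between the ages (SE 0.18, 95% interval -0.63 to 0.16, limma adjusted p = 0.389), and its exact permutation p of 0.171 was the lowest of the 10 genes. With 1 array left out, Actn3 ran between -0.31 (without old replicate 1) and -0.12 (without old replicate 2), and Ckm between -0.37 (without old replicate 1) and -0.13 (without young replicate 4). The other probe set of Ckm was flat across arrays, at 64.4 to 72.0 in old and 65.9 to 72.4 in young.

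**Figure D3:**
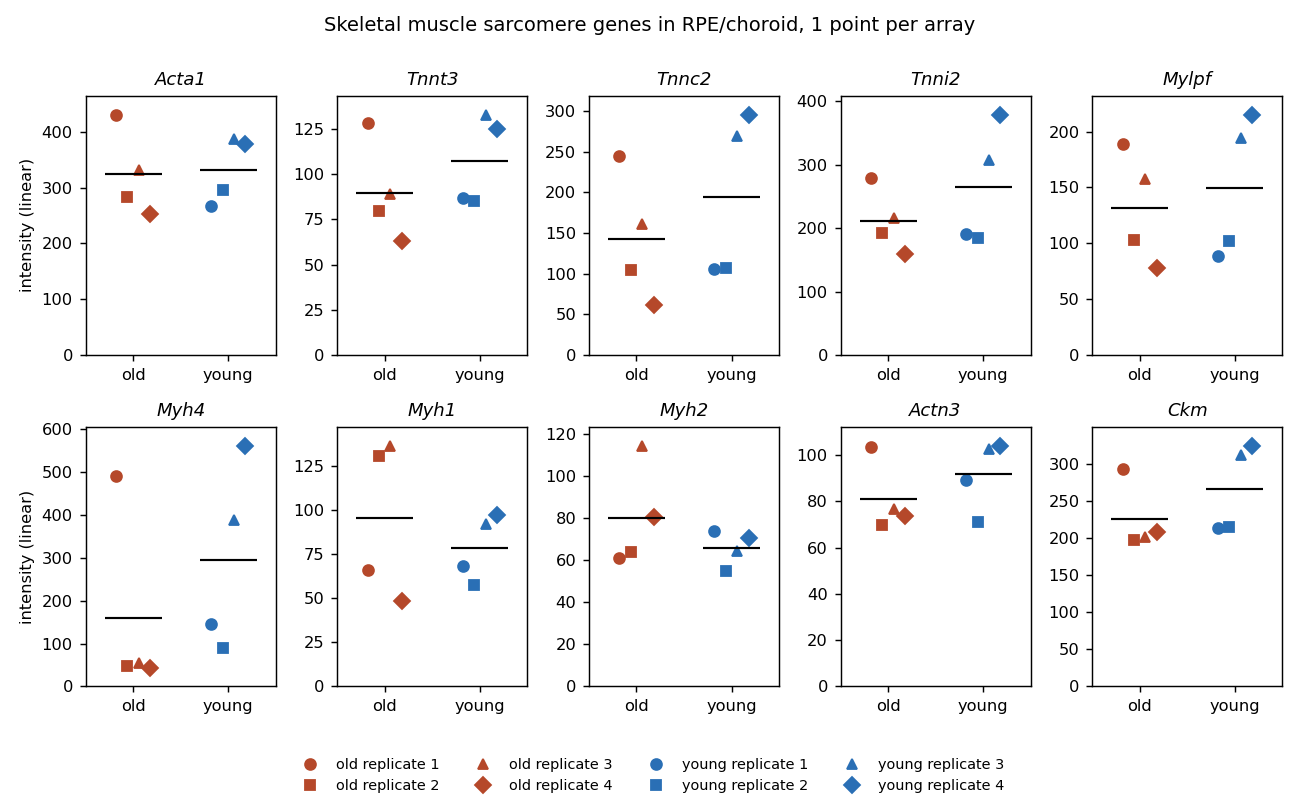
Intensity (linear, from 0) of the 10 genes, 1 point per array, old left of young, with a marker shape for each replicate. For 8 genes, Myh1 and Myh2 excepted, the highest of all arrays was old replicate 1, young replicate 3 or young replicate 4.

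The arrays of one age differed widely in these genes. The SD of log2 values within an age was 0.25 to 1.48 in the 10 genes with a median of 0.41, against a median of 0.10 over all genes. All 10 members exceeded the 90th percentile of all genes (0.20) and 9 exceeded the 95th (0.26), Actn3 being the exception. By this SD Myh4 was gene 3 of 18193, Tnnc2 (SD 0.84) gene 44, Mylpf (0.61) gene 135 and Myh1 (0.58) gene 151. The fold from the lowest to the highest of the 8 arrays was 13.1 for Myh4, 4.83 for Tnnc2, 2.83 for Myh1, 2.76 for Mylpf and 2.38 for Tnni2. It was 2.11 for Tnnt3, 2.07 for Myh2, 1.70 for Acta1, 1.64 for Ckm and 1.49 for Actn3.

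**Figure D4:**
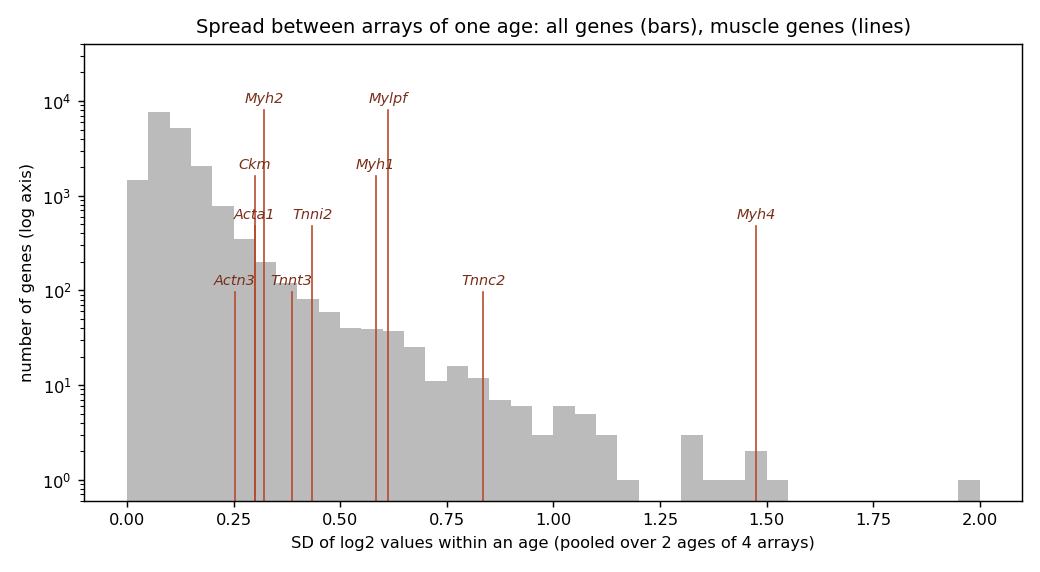
Number of genes (log axis, grey bars) by the SD of their log2 values within an age, pooled over 4 old and 4 young arrays. Red lines mark the 10 muscle genes (line height only separates the names), from 0.25 for Actn3 to 1.48 for Myh4.

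The arrays ranked alike for most members. Old replicate 1 was the highest old array for 8 genes, old replicate 4 was the lowest old array for 7, and young replicates 3 and 4 were the highest young arrays for 9. A member score was taken as the mean over the 10 genes of the log2 value minus the gene's own mean over 8 arrays. It was 0.42, -0.32, -0.01 and -0.62 in old replicates 1 to 4, against -0.20, -0.34, 0.47 and 0.60 in young replicates 1 to 4. The highest and lowest arrays lay 2.06-fold apart in old and 1.92-fold apart in young, while the mean scores of the ages, -0.13 in old and 0.13 in young, differed by -0.27 with an SD of 0.45 in old and 0.47 in young (n = 4 each).

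Likeness to this pattern was measured by the Pearson correlation, over the 8 arrays, of a gene's deviations from its age means with those of the score. For members the score was taken over the other members, and r was at least 0.8 in 8 of 10. Tnnc2 had 0.98, Tnnt3 0.97, Tnni2 0.97, Mylpf 0.96, Acta1 0.95, Ckm 0.88, Actn3 0.87 and Myh4 0.82. Myh1 had 0.31 and Myh2 -0.06. Without these 2 genes the score was 0.59, -0.47, -0.19 and -0.71 in old, against -0.22, -0.31, 0.59 and 0.72 in young replicates 1 to 4. These correlations describe 8 arrays that share tissue and handling, and carry no test.

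Other muscle genes, 109 measured of 116 in 8 lists, were read beside the members. Of these, 7 were called higher and 14 lower in old, 19.3% against 21.3% of all genes, and r with the score was at least 0.8 in 13 (11.9%), against 311 (1.71%) of 18183 genes outside the members. The other thick and thin filament genes of fast fibres had the largest share with r of at least 0.8, 30% of the list. Their median r was 0.46, against 0.49 in the Z disc, M band and titin genes. Of the 10 fast filament genes measured, 0 were called (2 at an unadjusted p under 0.05, and 1 called lower without old replicate 2). Their median log2 fold change was -0.17, and Myl1, Neb and Mybpc2 had r of 0.98, 0.97 and 0.89. Myl1, the fast essential light chain, read 197, 69.8, 119 and 43.6 in old, against 76.3, 74.3, 168 and 188 in young arrays, the order of Tnnc2 in the old arrays. Its log2 difference was -0.33 (SE 0.48, limma adjusted p = 0.667). Neb, the ruler of the thin filament, was dim on its probe set and read 13.90, 10.33, 10.64 and 8.16 in old, against 11.01, 11.53, 16.37 and 18.61 in young arrays. Mybpc2, a fast myosin binding protein, read 64.2, 34.6, 39.4 and 36.7 in old, against 35.2, 41.2, 59.4 and 56.8 in young arrays. Tpm1 and Tpm2, tropomyosins that smooth muscle and other cells also make, had r of 0.58 and 0.57.

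Slow and cardiac isoforms showed little of the pattern. Of 12 measured, 1 was called higher (Tpm3) and 1 lower (Tnnt1), 16.7% against 21.3% of all genes. Their median log2 fold change was 0.02 and their median r was -0.02, and Actc1, the cardiac actin, was the 1 gene with r of at least 0.8 (0.85). Tpm3, a tropomyosin of slow fibres that many other cells also make, read 3052, 3205, 2947 and 2961 in old, against 2369, 2421, 2359 and 2402 in young arrays, and rose by 0.35 (SE 0.05, limma adjusted p = 0.0021). Tnnt1, the slow troponin T, fell by 0.31 (SE 0.07, adjusted p = 0.0219), and lost its call without old replicate 3 (0.0627), young replicate 1 or young replicate 4. Myl3, the slow light chain, was at 229 to 264 in old and 221 to 253 in young arrays. The r of Tnnt1, Tpm3 and Myl3 with the score was -0.64, -0.05 and 0.14. The mean centred log2 value of this list stayed within -0.05 to 0.03 in old and -0.04 to 0.05 in young arrays.

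Among Z disc, M band and titin genes, 24 of 26 were measured. In old, 2 were called higher and 2 lower, 16.7% against 21.3% of all genes, with a median log2 fold change of -0.09. Myot, a Z disc protein that binds α-actinin, read 97.5, 84.0, 124 and 90.7 in old, against 47.5, 40.0, 56.1 and 54.6 in young arrays, and rose by 0.996 (SE 0.14, limma adjusted p = 0.0018). Pdlim3, a Z disc protein also made by smooth muscle, read 361, 407, 414 and 378 in old, against 253, 239, 240.1 and 264 in young arrays, and rose by 0.65 (SE 0.06, adjusted p = 0.000269). Neither overlapped between the ages, as was so for 29.5% of all genes, and their r with the score was 0.66 and -0.01. Myom3 (-0.23, adjusted p = 0.0451) and Trim54 (-0.23, adjusted p = 0.0492) fell. With 1 array left out, Myom3 kept its call only without old replicate 3 or young replicate 2 (adjusted p up to 0.106) and Trim54 only without old replicate 4 or young replicate 2 (up to 0.126). Myom1, a protein of the M band, was the gene of this list closest to the members (r 0.91), at 84.9 to 103 in old and 87.4 to 119 in young arrays.

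Of 19 calcium handling genes measured, 5 had r of at least 0.8, a share of 26.3% against 30.0% of the other fast filament genes. Atp2a1, the calcium pump of fast fibres, had 0.92 and read 311, 239, 262 and 229 in old, against 270.5, 219, 288 and 314 in young arrays, a log2 difference of -0.07 (SE 0.13, limma adjusted p = 0.757). Srl had 0.92, Pvalb, the calcium buffer parvalbumin, 0.86, and Mrln and Jsrp1 0.83 each. Mrln and Jsrp1 varied little within an age, with an SD of 0.075 and 0.036, against a median of 0.10 over all genes. Hrc, a calcium binding protein of the sarcoplasmic reticulum, fell by 0.35 (SE 0.07, adjusted p = 0.0128), and Mrln, the pump inhibitor myoregulin, by 0.24 (SE 0.06, adjusted p = 0.0253). The call of Mrln was lost without old replicate 2, 3 or 4 or young replicate 3 or 4 (adjusted p up to 0.0749, without young replicate 3). No gene of the list was called higher, and 10.5% of it was called in either direction, against 21.3% of all genes.

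Of 18 energy genes, 2 were called higher and 4 lower, 33.3% against 21.3% of all genes. Pgam2, the muscle phosphoglycerate mutase, rose by 0.49 (SE 0.09, limma adjusted p = 0.0051) and Adssl1, of the purine nucleotide cycle, by 0.48 (SE 0.06, adjusted p = 0.0013). Cox8b, a cytochrome oxidase subunit of heart, muscle and brown fat, read 1821, 1331, 2091 and 2011 in old, against 2490, 2665, 3223 and 3518 in young arrays, and fell by 0.72 (SE 0.16, adjusted p = 0.0144). Fabp3, a fatty acid carrier of heart and muscle, fell by 0.95 (SE 0.18, adjusted p = 0.0080), Pygm, the muscle glycogen phosphorylase, by 0.33 (SE 0.05, adjusted p = 0.0034) and Ppp1r3c by 0.36 (SE 0.11, adjusted p = 0.0497, lost without any 1 of the 8 arrays, up to 0.119). Their r with the score ran from 0.15 for Fabp3 to 0.69 for Pygm among the 3 brightest that fell. Eno3, the muscle enolase, was the 1 gene of the list with r of at least 0.8 (0.87), and it was not called.

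Of 5 developmental and extraocular isoforms measured, 2 were called lower, 40% against 9.56% of all genes. These were Myl4 (-0.43, SE 0.07, limma adjusted p = 0.0038) and Myh14 (-0.34, SE 0.07, adjusted p = 0.0128). Myh14 encodes a non-muscle myosin. Myh13 and Myh15, heavy chains of extraocular fibres, had no probe set of their own in the annotation used here, so that the most specific markers of that muscle were not read. Myh3, the embryonic heavy chain, had r of 0.82 and read 49.2 to 55.7 in old and 36.4 to 54.0 in young arrays. Of 9 neuromuscular junction genes, Rapsn, which clusters acetylcholine receptors, fell by 0.36 (SE 0.08, limma adjusted p = 0.0123). It was the 1 call of the list, 11.1% against 21.3% of all genes, and none of the 9 had r of at least 0.8.

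Of 12 myogenic regulators measured, 2 were called higher and 2 lower, 33.3% against 21.3% of all genes. Pax7, the defining factor of satellite cells, read 87.3, 73.1, 77.3 and 65.9 in old, against 119, 89.4, 120.4 and 118 in young arrays. It fell by 0.55 (SE 0.12, limma adjusted p = 0.0123) without overlap between the ages, as was so for 29.5% of all genes, and had r of 0.80. Pax3, also made by melanocytes, fell by 0.45 (adjusted p = 0.0250, 0.0586 without old replicate 3, and lost without old replicate 4 or young replicate 1). Mef2a rose by 0.18 (adjusted p = 0.0417, lost without any 1 of the 8 arrays, up to 0.119) and Mymk, the fusion factor myomaker, by 0.21 (adjusted p = 0.0326, kept with 1 array left out only without old replicate 2 or young replicate 1, up to 0.0901).

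**Figure D5:**
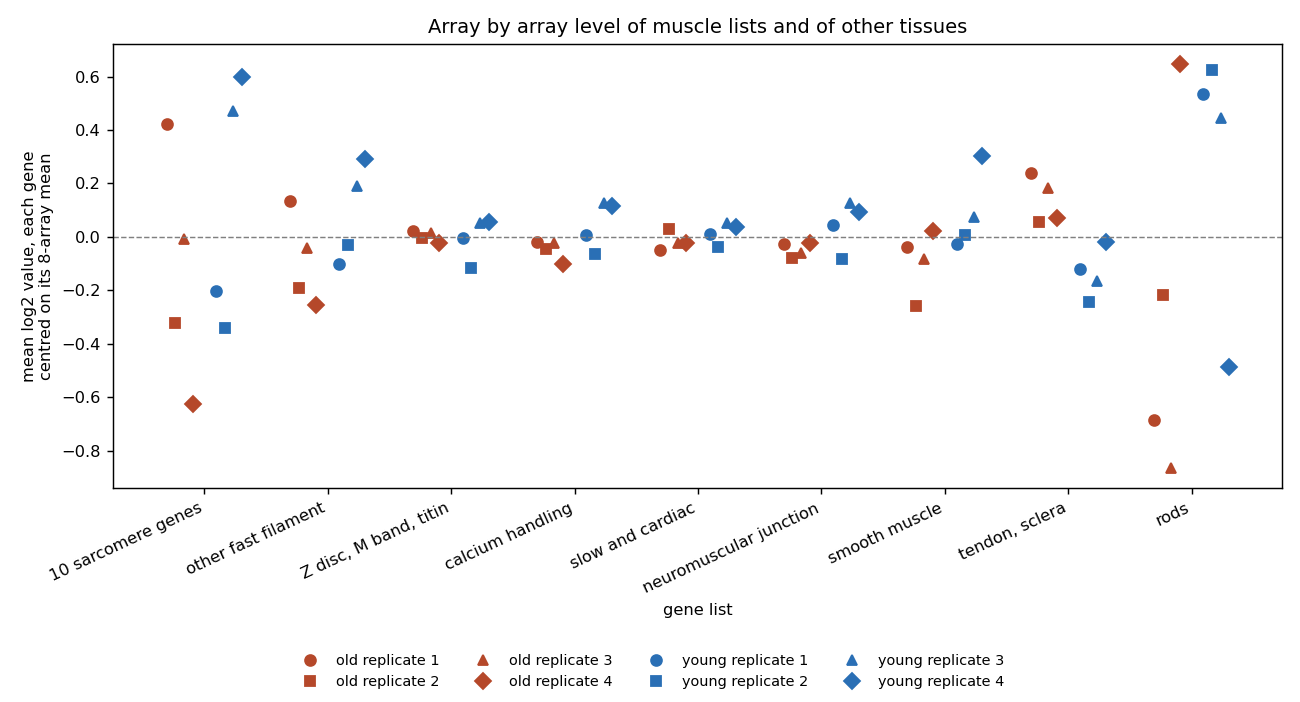
Mean over the genes of a list of the log2 value, each gene centred on its own mean over 8 arrays, 1 point per array, old left of young. The 10 sarcomere genes spread from -0.62 to 0.42 in old and from -0.34 to 0.60 in young arrays, the other fast filament genes from -0.25 to 0.13 and from -0.10 to 0.29, and the slow and cardiac isoforms stayed within -0.05 to 0.05.

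Markers of other tissues were read on the same arrays, and their part in the pattern was not tested. Rod photoreceptor genes, 11 measured of 13, varied within the ages too, with a median r of -0.82. Their mean centred log2 value was -0.68, -0.22, -0.86 and 0.65 in old, against 0.53, 0.63, 0.45 and -0.49 in young replicates 1 to 4. Old replicate 4, lowest for the sarcomere genes, was highest among old arrays for rods, and young replicate 4 was highest for the sarcomere genes and lowest among young arrays for rods. Young replicate 3 was above 0 in both, at 0.47 for the sarcomere genes and 0.45 for rods, where it lay below young replicates 1 and 2. Sag, the rod arrestin, read 1915, 3083, 1975 and 4588 in old, against 5141, 5242, 4716 and 2493 in young arrays. Of the 11 rod genes 0 were called, against 21.3% of all genes, and 1 had an unadjusted p under 0.05, against 37.4%. Without old replicate 4, 2 rod genes were called lower.

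Tendon, sclera and cartilage genes, 16 measured, had 5 called higher and 1 lower, 37.5% against 21.3% of all genes. Their centred mean was 0.06 to 0.24 in old against -0.24 to -0.02 in young arrays, without overlap. Fmod, a collagen binding proteoglycan, rose by 0.59 (SE 0.10, limma adjusted p = 0.0053) and Thbs4, a matrix protein of tendon, by 0.62 (SE 0.06, adjusted p = 0.000359), with r of 0.52 and -0.09. Ogn, the proteoglycan osteoglycin, was the 1 gene of this list with r of at least 0.8 (0.83), and it was not called. Of 15 smooth muscle genes 1 was called higher and 4 lower (33.3%), with a centred mean of -0.26 to 0.02 in old and -0.03 to 0.30 in young arrays. Of 10 genes listed for adipocytes Fabp4 alone was called (1.88, limma adjusted p = 0.000215), 10% of the list, and which cells gave its signal was not tested. Of 16 genes listed for the RPE 9 were called lower (56.2%) and of 12 endothelial genes 7 (58.3%), against 9.56% of all genes. Those 9 include the pigment genes Tyr, Tyrp1, Dct and Pmel, and which pigment cells gave their signal was not tested. Of 12 macrophage genes 10 were called higher (83.3%), against 11.8% of all genes. None of the RPE, endothelial or macrophage genes had r of at least 0.8. With 1 array left out the RPE count was 4 to 9 (9 without old replicate 1, 4 to 6 without any other array) and the endothelial count 3 (without old replicate 3) to 8, and 1 to 4 smooth muscle genes were lower (1 without old replicate 2 or young replicate 3), while median centring left 4 RPE genes and the replicate block 5.

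Outside the members, 520 genes lay above the median level and had an SD of at least 0.2, and the 10 whose deviations were closest to the score were Atp2a1 (0.92), Lgi2 (0.91), Abi3bp (0.87), Id1 (0.85), Ltbp2 (0.81), Elp4 (0.81), Fbln1 (0.76), Postn (0.75), Hsd17b7 (0.75) and Shisa2 (0.74). These r leave out the difference between the ages. Over the values themselves r with the score was -0.09 for Ltbp2, 0.34 for Abi3bp and 0.26 for Postn, and 0.64 to 0.92 for the rest. Ltbp2 was higher in old by 1.30 (SE 0.13, limma adjusted p = 0.000334). Atp2a1 was the 1 gene of the muscle lists among these 10, and 3 genes of those lists were among the 520. With no limit on level, a look added after the data were seen, 1802 genes qualified, 15 of them from the muscle lists. Of the first 10, 4 were from those lists, Myl1 (0.98), Neb (0.97), Atp2a1 (0.92) and Mybpc2 (0.89). The rest were Lgi2 (0.91), Hs6st2 (0.91), Adamdec1 (0.91), Rfpl4 (0.90), Pramel29 (0.88) and BC048671 (0.88).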

How the data were processed

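The members, the gene lists and the tests were chosen with earlier results of these data known. RPE/choroid RNA of 4 old and 4 young samples was measured on 1 Mouse 430 2.0 array per sample. The deposited intensity values are linear and were taken as normalized between arrays before deposit, by a step the table does not name. The methods name RMA and invariant set normalization. They name GCOS for the quantification of images, and BRB-ArrayTools for gene filtering and SAM statistics.

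Of 45101 probe sets, 64 controls were left out, which left 45037. By the platform annotation 34945 named 1 gene, 932 several and 9160 none, and the RefSeq table changed 0 symbols. Values were floored at 1 (8 to 14 values per array lay below) and put on the log2 scale. The ages were compared with limma 3.58.1 in R 4.3.3 (lmFit and eBayes, no covariate), with Benjamini-Hochberg adjustment over all probe sets and a call at an adjusted p under 0.05. A gene was read by its single-gene probe set of highest mean log2 value. The script was tested on simulated data. The number of arrays limits the precision.

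The text names all 10 members, up to 3 called genes of highest level per other muscle list (genes of highest level where fewer were called, and counts of 5 or fewer in full), up to 2 per marker list of another tissue, and the 10 genes closest to the member score. Pgam2, Adssl1 and Ppp1r3c fall outside this rule and were named after their values were seen. Alternatives covered the normalization, floor, filter, variance estimate, array weights, replicate block, probe set per gene, call rule and each array left out.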

Additional observations from a re-analysis of the deposited data

Results flagged for a closer look

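Among 58 groups of 4 arrays looked at (the 10 members, the 10 genes named for their likeness and the scores of the members and the 8 other muscle lists, at each age), 3 held an array whose gap to the nearest other on the log2 scale, divided by the range of the log2 values, exceeded Dixon's 95% critical value, where chance gives about 5%. Thus 3 of 58 is near the share that chance gives. All 3 concerned old replicate 1, the highest old array of the member score. Myh4 and Ckm are part of that score and Postn was named for following it, so their sharing of this array is no separate result. Myh4, the IIB heavy chain, read 491 there and 42.7 to 55.5 in the other old arrays (ratio 0.892). Ckm, muscle creatine kinase, read 293 there and 198 to 208 in the others (ratio 0.870). Postn, the matrix protein periostin, which is no member, read 1172 there and 890.2 to 932 in the others (ratio 0.831).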

How the results depend on the processing

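The count of member genes called was 0 in the other alternatives and 0 to 1 when each array was left out in turn, as was that of member probe sets, the 1 call being Myh4 without old replicate 1 (-2.26, adjusted p = 0.0304). The median log2 fold change of the members was -0.37 to -0.11 with 1 array left out and -0.43 to -0.18 otherwise. Of 175 single-member alternatives 164 kept direction and side of the threshold and 10 changed sign: Acta1 without old replicate 2 (0.013), old replicate 4 (0.069), young replicate 3 (0.039) or young replicate 4 (0.027), within -0.19 to 0.069 with 1 array left out, Mylpf without old replicate 4 (0.059) or young replicate 4 (0.042), within -0.38 to 0.059, and Myh1 without old replicate 2 (-0.023) or old replicate 3 (-0.042), within -0.042 to 0.46 with 1 array left out, and in addition with array weights (-0.037) and with the probe set of smallest p (-0.11). The cause was not tested. With probe sets below the median level left out, 5 members remained and the range of their score in old was 1.52, against 1.05 (0.61 to 1.05 with 1 array left out, and 0.80 to 0.94 in young).

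Over all genes, 2145 were called higher and 1739 lower, 1475 to 2215 and 953 to 1766 with 1 array left out, and 14 to 23 of the other muscle lists against 21, of which 13 kept their call without any 1 array and 8 did not. Under the other settings 6 of the 21 lost their call: all 6 with the replicate block (Myom3, adjusted p = 0.064, Trim54, 0.103, Mrln, 0.067, Mef2a, 0.091, Mymk, 0.054, and Ppp1r3c, 0.076), Myom3 (0.065) and Mef2a (0.147) with quantile normalization, Myom3 (0.069), Trim54 (0.054) and Ppp1r3c (0.072) with median centring, Myom3 with trend and robust estimation (0.051), and Ppp1r3c with a floor of 16 (0.063), array weights (0.074) or the mean of its probe sets (0.341). A fold over 2 with an adjusted p under 0.01 left 205 higher, 18 lower and 0 of those lists, and a fold over 1.5 left 576, 156 and 4. Quantile normalization gave 1921 higher and 2053 lower, and median centring 2478 and 1345, with 8 members below 0 in both; the median of all genes was -0.02 and 0.01. Old and young arrays of the same number share only a number: their deviations correlated at 0.0190 to 0.0971, and 1 of 4 correlated best with its own number. With the number as a replicate block 0 members, 1655 genes higher and 1258 lower were called, and 16 of the other muscle lists. Detection calls were not used, so how far each probe set stood above background was not assessed.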
